A study of Mus musculus with 6 samples.

Results

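Solute carriers are membrane proteins that move nutrients, ions, metals, vitamins and waste products into and out of cells and organelles. The 123 carrier genes described here were those named by a single annotated symbol that begins with Slc or Slco and a family number, out of 7151 genes named on the arrays. They had 148 probes, 71 on array A and 77 on array B, in 44 families, and were described by what each family carries, with the mitochondrial carriers of family Slc25 (16 genes) apart. Liver total RNA of 3 male mice was measured on a pair of expression arrays, A and B, each with 8448 spots of its own, which made 6 arrays in all. The groups, each of 1 mouse, were calorie restriction with death at 177 days, ad libitum feeding with death at 174 days, and ad libitum feeding with death at 17 days. Per the labels the older mice belonged to the 2nd age group and the young mouse to the 1st, and the unit of its age rests on the label alone. Strain, the degree of restriction and its start were not given in the sources used here. Because no group held more than 1 mouse, neither tests nor errors between animals could be had, and each difference below describes these mice only.

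In the liver, carriers set what hepatocytes take from the portal blood and return to it. Glucose and amino acid carriers serve gluconeogenesis and urea synthesis, organic anion carriers clear bile acids, hormones and drugs, and zinc and iron carriers let the liver store and release metals. Carriers of the inner mitochondrial membrane link the cytosolic and mitochondrial steps of these pathways by exchanging citrate, phosphate, malate, aspartate and acylcarnitine.

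The arrays of the 174-day mouse were the dimmest, with median spot intensities of 35.8 (array A) and 60.8 (array B), against 375 and 332.8 in the calorie-restricted and 364.3 and 402.5 in the 17-day mouse. Values were therefore compared after quantile scaling of the 3 arrays of a kind, and a scaled intensity below is such a value in arbitrary units. A probe entered the comparisons where its scaled level, averaged over the 3 mice, exceeded the 50th percentile for that kind of array. A probe that is bright in 1 mouse could enter through that mouse, so counts over entering genes are descriptions. Of the 123 carrier genes, 64 entered with 68 probes (52.0%), against 54.0% of all named genes, and 59 did not. The probes nearest to the limit were those of Slc17a6 at the 51.0th percentile, which entered, and of Slc2a4 at the 49.6th, which did not. A gene took the median log2 difference of its entering probes and was counted as apart at 2-fold, a log2 difference of at least 1. Between entering probes of the same gene, whose spread is technical only, the pooled SD was 0.58 log2 in the diet comparison, 0.40 between the calorie-restricted and the 17-day mouse and 0.45 in the age comparison (557 genes). Differences between mice also followed spot position, so values after a correction for it are given for each call it changes. It turned the sign of 17 of the 64 carriers in the diet comparison, of 18 in the calorie-restricted against the 17-day mouse and of 10 in the age comparison, so that orders of the mice below refer to the scaled values before it unless stated. Of 19 hepatocyte markers 7 were on the arrays and 6 entered, among them the albumin gene Alb, and none of the listed kidney markers was named on the arrays. Summed scaled intensities of the hepatocyte markers were 33690.3 in the calorie-restricted, 21429.0 in the 174-day and 24646.7 in the 17-day mouse, of which Alb alone gave 22608, 9990.4 and 12205. Alb was at 1.18 log2 with diet, or 0.55 after the position correction, while the other 5 entering hepatocyte markers lay from -0.46 for Serpina1e to 0.26 for Ttr. For the 4 bile duct markers on the arrays they were 1516, 1820.1 and 1467 in the same order of mice. For the 6 erythroid markers on the arrays the sums were 7415, 7577 and 7612, and for the 5 stellate cell markers 4958, 5321 and 5413. The 3 endothelial markers gave 1104, 1213 and 1429. The macrophage, lymphoid and exocrine pancreas lists had 1 marker each on the arrays. In the same order of mice Lyz2 gave 543, 526 and 643, and Cpa1 464, 403 and 363. Ighm, which did not enter, gave 183, 114 and 153. In bulk liver, fewer cells of a type and less RNA per cell cannot be told apart, and the part of cell makeup in the differences was not tested.

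The diet comparison sets the calorie-restricted mouse against the 174-day mouse and asks which carriers differed with food intake at nearly the same age. Of the 64 carriers 6 were at least 2-fold apart, which is 9.38% against 6.86% of all 3865 genes. The calorie-restricted mouse had 1 carrier higher and 5 lower, while 2.25% of all genes were higher there and 4.61% lower. The higher gene was Slc26a10, of the family of anion exchangers. The lower genes were the zinc importers Slc39a14 and Slc39a4, the sodium-phosphate cotransporter Slc34a2, the multivitamin carrier Slc5a6 and the Golgi sulfate donor carrier Slc35b2. Of the 64 carriers 31 lay above 0 (48.4%), against 47.2% of all genes, and their median of -0.04 log2 equalled that of all genes at -0.04. Once corrected for spot position, 4 of the 6 were still 2-fold apart in the same direction, Slc26a10, Slc34a2, Slc5a6 and Slc35b2, and no other carrier passed (6.25% against 2.92% of all genes). The share of carriers apart was below that of all genes with median centring (14.1% against 17.1%) and without the brightness filter (6.50% against 7.44%, 4 higher and 4 lower). It was above that of all genes with the top 25% of probes (15.4% against 4.57%). On array A alone, which held 5 of the 6, it was above as well (14.7% against 7.62%), but on array B alone below (3.1% against 6.84%). Each of the 6 rested on 1 entering probe. Before scaling, each of the 5 lower genes was dimmest in the 174-day mouse, as its arrays were in general, so the direction of these 5 rests on the scaling.

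**Figure D1:**
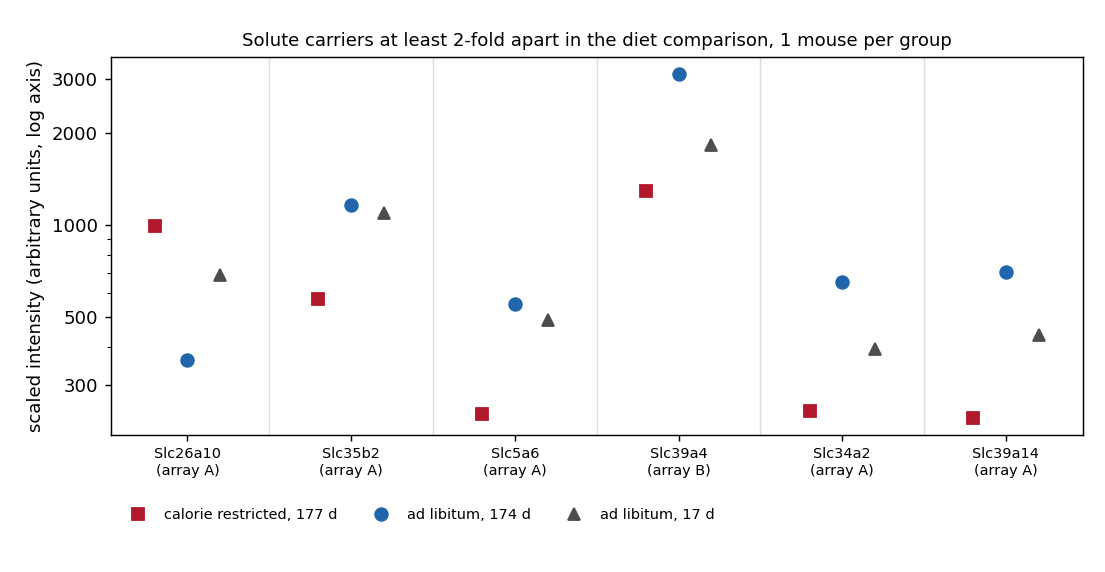
Scaled intensity (arbitrary units, log axis) of the 6 solute carriers that were at least 2-fold apart between the calorie-restricted and the 174-day mouse, with 1 point per mouse and no error bar since each group was 1 mouse. Slc26a10 is highest in the calorie-restricted mouse, and the other 5 are lowest there, with the 174-day mouse highest in each of these.

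Slc39a14, a zinc, iron and manganese importer of the hepatocyte surface, had deposited intensities of 522 in the calorie-restricted, 169 in the 174-day and 898 in the 17-day mouse. Scaled, these became 235 in the calorie-restricted, 705 in the 174-day and 439 in the 17-day mouse. The calorie-restricted mouse was thus lowest and the 174-day mouse highest, with the young mouse between them, at a diet difference of -1.58 log2. The difference was -0.87 after the position correction. Slc39a4, a zinc importer best known from the intestine, read 1739 in the calorie-restricted, 1348 in the 174-day and 3541 in the 17-day mouse and scaled to 1296 in the calorie-restricted, 3111 in the 174-day and 1822 in the 17-day mouse. Its order over the mice was that of Slc39a14, with a diet difference of -1.26, or -0.49 after the position correction.

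Slc34a2, which brings phosphate into epithelial cells together with sodium, read 547 in the calorie-restricted, 154 in the 174-day and 809 in the 17-day mouse and scaled to 248 in the calorie-restricted, 654 in the 174-day and 394 in the 17-day mouse. It was -1.40 log2 in the diet comparison and -1.71 after the position correction, but a dimmer probe on array B, which did not enter, was at 0.46. Over both probes the gene was at -0.47. Slc5a6 carries biotin, pantothenate and lipoate. Its entering probe read 533 in the calorie-restricted, 126 in the 174-day and 994 in the 17-day mouse and scaled to 241 in the calorie-restricted, 552 in the 174-day and 492 in the 17-day mouse. On this probe the calorie-restricted mouse stood below both ad libitum mice, which lay close together, at 0.17 log2 with age, or 0.34 after the position correction. Over both Slc5a6 probes the age difference was 0.52. The diet difference was -1.19, or -1.36 with the position correction, and a dimmer probe on array B was at -0.75, in the same direction. Over both probes the gene was at -0.97, short of 2-fold.

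Slc35b2 brings the sulfate donor of sulfotransferases into the Golgi. It read 1257 in the calorie-restricted, 300.5 in the 174-day and 2115 in the 17-day mouse, which scaled to 575 in the calorie-restricted, 1167 in the 174-day and 1101 in the 17-day mouse. Here too the ad libitum mice of both ages lay close together and the calorie-restricted mouse below them, at -1.02 log2 in the diet comparison and -1.13 after the position correction. Slc26a10 read 2049 in the calorie-restricted, 80.0 in the 174-day and 1339 in the 17-day mouse and scaled to 994 in the calorie-restricted, 364 in the 174-day and 686 in the 17-day mouse. Its order was the reverse, with the 174-day mouse lowest and the calorie-restricted mouse highest, at a diet difference of 1.45, or 1.03 after the position correction.

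Shown are the 250 bases before the annotated starts of the 4 carriers 2-fold apart with diet both before and after the position correction. The sequences are from RefSeq for GRCm38.p6, and Slc5a6 has 2 annotated starts. Capitals mark matches, on either strand, to the GC box (GGGCGG), the TATA motif (TATAAA), the CCAAT box, the E box (CACGTG) and the metal response core (TGCACNC or else TGCGCNC). In the same order, 32.7%, 12.4%, 33.8%, 6.02% and 21.4% of all 32851 promoter windows held a match. Of the 7476 windows of named genes on the arrays, 58.0%, 6.84%, 35.4%, 8.80% and 30.2% did.
Slc26a10 (chr10:127180583-127180832, minus strand): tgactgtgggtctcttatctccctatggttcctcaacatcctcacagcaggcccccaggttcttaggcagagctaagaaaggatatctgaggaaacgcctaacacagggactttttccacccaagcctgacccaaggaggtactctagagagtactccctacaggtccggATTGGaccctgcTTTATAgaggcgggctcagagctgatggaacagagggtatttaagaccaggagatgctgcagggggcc
Slc34a2 (chr5:53049103-53049352, plus strand): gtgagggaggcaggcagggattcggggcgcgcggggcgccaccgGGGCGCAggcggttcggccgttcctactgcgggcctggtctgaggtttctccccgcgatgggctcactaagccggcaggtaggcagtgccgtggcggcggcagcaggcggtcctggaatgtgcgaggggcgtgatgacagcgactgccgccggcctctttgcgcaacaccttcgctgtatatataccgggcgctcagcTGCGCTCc
Slc35b2 (chr17:45563686-45563935, plus strand): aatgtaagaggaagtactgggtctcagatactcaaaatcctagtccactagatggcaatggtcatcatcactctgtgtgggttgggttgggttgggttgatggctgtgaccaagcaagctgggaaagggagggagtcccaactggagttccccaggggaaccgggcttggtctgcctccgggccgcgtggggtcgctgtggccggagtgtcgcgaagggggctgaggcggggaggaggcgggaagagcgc
Slc5a6 (chr5:31048080-31048329, minus strand): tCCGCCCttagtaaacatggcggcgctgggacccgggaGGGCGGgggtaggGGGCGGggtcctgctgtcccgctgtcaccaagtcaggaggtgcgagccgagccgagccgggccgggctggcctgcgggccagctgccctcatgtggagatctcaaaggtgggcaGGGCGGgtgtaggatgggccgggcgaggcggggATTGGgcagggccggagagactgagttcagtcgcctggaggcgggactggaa
Slc5a6 (chr5:31048563-31048812, minus strand): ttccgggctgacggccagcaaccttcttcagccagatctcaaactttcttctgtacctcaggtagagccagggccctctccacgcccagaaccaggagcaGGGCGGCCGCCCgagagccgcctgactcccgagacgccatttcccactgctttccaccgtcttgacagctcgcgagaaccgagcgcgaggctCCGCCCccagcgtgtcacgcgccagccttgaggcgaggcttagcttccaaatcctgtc
No match was common to all 4 genes. The Slc5a6 windows held 4 and 3 GC boxes, and the first of them also 1 CCAAT box. That of Slc26a10 held 1 TATA box and 1 CCAAT box. The Slc34a2 window held 2 metal response cores and was rich in G and C at 69.6%, while the Slc35b2 window held no match to these letters. A match describes the sequence and is no evidence of binding. No promoter windows were used for Slc39a14 and Slc39a4.

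Below 2-fold in the diet comparison, the next lower carriers were Slc35b4 (-0.74), which brings nucleotide sugars into the Golgi and endoplasmic reticulum, the hepatic neutral amino acid carrier Slc38a4 (-0.67) and the urea carrier Slc14a1 (-0.67). Slc35b4 scaled to 874 in the calorie-restricted, 1456 in the 174-day and 1620.5 in the 17-day mouse. Its difference was 0.04 after the position correction, and that of Slc14a1 was -0.10. On the higher side followed Slc17a6 (0.93), a carrier of glutamate into vesicles, Slc15a4 (0.93), a lysosomal histidine and peptide carrier, and Slc30a7 (0.92), which brings zinc into the Golgi. The zinc carriers Slc39a1 (0.57) and Slc39a8 (0.57), the amino acid exchanger Slc7a6 (0.56) and the inositol carrier Slc5a11 (0.54) completed the 8 highest. After the position correction these 7 lay from -0.27 for Slc5a11 to 0.62 for Slc17a6. At a limit of 1.5-fold 13 carriers were apart, 4 higher and 9 lower, or 20.3% against 28.5% of all genes.

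**Figure D2:**
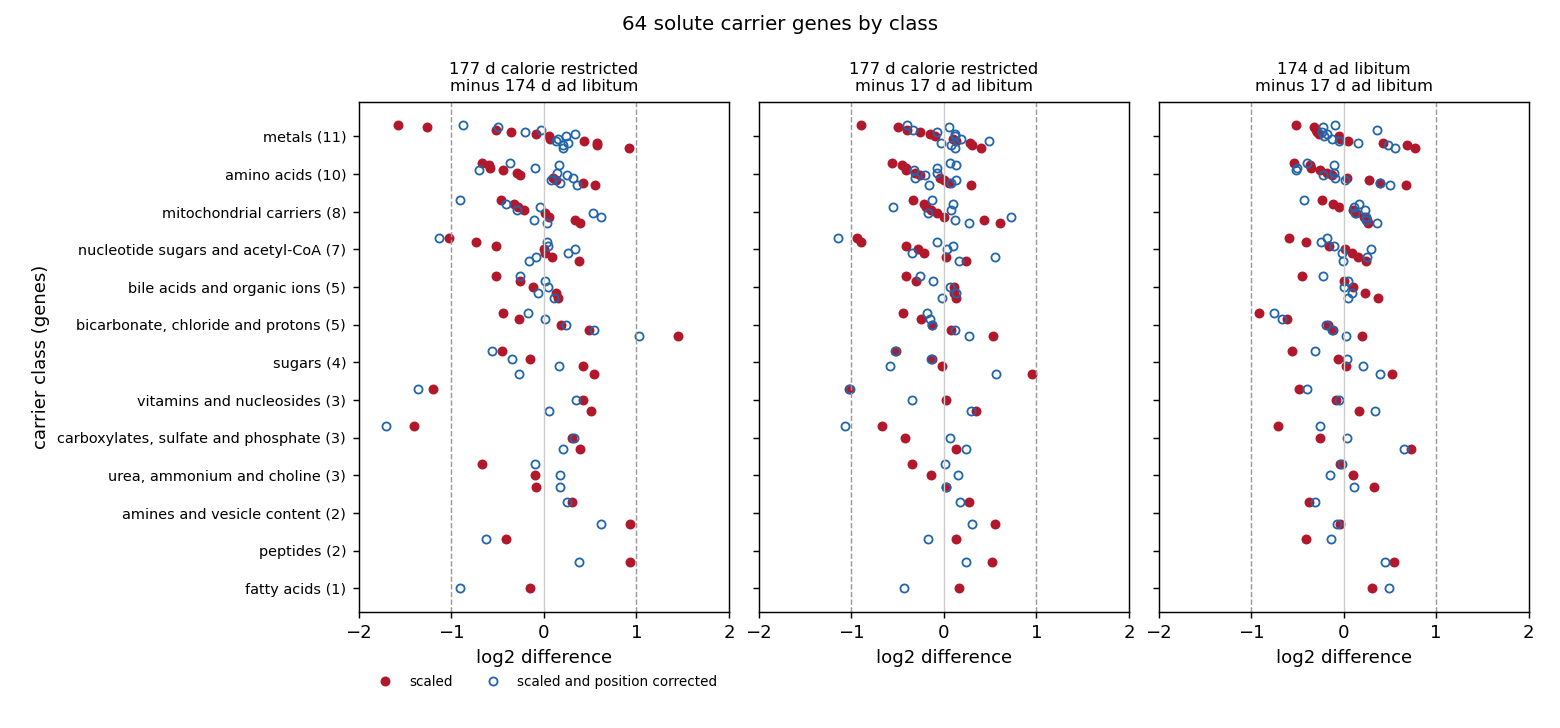
Log2 differences of the 64 carriers by class in the 3 comparisons, 1 point per gene, scaled (filled) and with the position correction (open), with dashed lines at 2-fold. Points beyond the lines appear in the diet comparison and on the lower side of the calorie-restricted against the 17-day mouse, and none lies beyond them in the age comparison.

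Against the 17-day mouse, which asks how the older restricted animal differed from the young one, 1 carrier was 2-fold apart in the calorie-restricted mouse. This was Slc5a6, lower at -1.03 log2, and 1 of 64 is 1.56%, against 1.58% of all genes apart and 1.11% lower. The call rested on a value at the limit, since Slc5a6 was at -0.99 when the arrays were scaled without those of the 174-day mouse and at -0.45 over both probes, the dimmer of which lay the other way at 0.12. Slc35b2 (-0.94), Slc39a14 (-0.90), Slc35b4 (-0.89), Slc34a2 (-0.67), Slc38a1 (-0.56), Slc45a3 (-0.52) and Slc39a4 (-0.49) completed the 8 lowest. After the position correction Slc35b2 (-1.15) and Slc34a2 (-1.06) passed the limit beside Slc5a6 (-1.02), 3 of 64 (4.69%) against 1.01% of all genes. Slc38a1 was at 0.07, Slc39a4 at 0.06 and Slc35b4 at -0.07 with that correction, while Slc39a14 was at -0.39 and Slc45a3 at -0.53. The diet comparison and this one share the calorie-restricted arrays, so a carrier that read low there is low in both.

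The highest carrier in the calorie-restricted against the 17-day mouse was Slc2a8, an intracellular glucose carrier, at 0.95 log2. Its entering probe scaled to 389 in the calorie-restricted, 290.1 in the 174-day and 201 in the 17-day mouse, so that both older mice lay above the young one. A dimmer Slc2a8 probe was at 0.34 but at -0.31 with age, with the 174-day mouse below the young one, and the entering probe at 0.56 after the position correction. Slc25a1, the mitochondrial citrate carrier, followed at 0.61, then Slc17a6 (0.55), Slc26a10 (0.53), Slc15a4 (0.52), Slc25a48 (0.44), Slc30a7 (0.40) and the nucleoside carrier Slc29a2 (0.34). In all, 27 carriers lay above 0 and 36 below, with a median of -0.11 against -0.09 for all genes.

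In the age comparison, between the older and the young ad libitum mouse, 0 of the 64 carriers were 2-fold apart, against 1.16% of all genes. After the position correction the count was also 0, against 0.906% of all genes. With each array centred on its median in place of quantile scaling, which moved the median of all genes to 0.20, Slc39a4 was at 1.33. The highest carriers were Slc39a4 (0.77), Slc34a2 (0.73), Slc39a14 (0.68) and Slc38a4 (0.67), all of which were among the 8 lowest in the diet comparison. The 2 comparisons share the arrays of the 174-day mouse, whose value enters them with opposite signs. Next came the peptide carrier Slc15a2 (0.54), Slc2a8 (0.53), the zinc carrier Slc30a4 (0.43) and Slc66a2 (0.40). The lowest were Slc26a10 (-0.91), Slc16a13 (-0.71), of the monocarboxylate carriers, the bicarbonate carrier Slc4a8 (-0.61) and Slc35f6 (-0.59). Slc5a11 (-0.56), the amino acid exchanger Slc7a8 (-0.53), Slc30a7 (-0.51) and the nucleoside carrier Slc28a3 (-0.49) followed. The median over carriers was -0.04 against -0.03 for all genes, with 30 above 0 and 34 below.

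Metal carriers formed the largest entering class, with 11 of 18 genes. Their diet median was 0.06 log2, with 6 genes above 0, 5 below and 2 of these 2-fold lower in the calorie-restricted mouse, where 4.61% of all genes were. After the position correction none of the 11 was 2-fold apart. The importers of the Slc39 family did not move together. Slc39a14 and Slc39a4 were lower as given above, Slc39a8, a zinc and manganese importer, scaled to 579.7 in the calorie-restricted, 389.8 in the 174-day and 469 in the 17-day mouse, and Slc39a1 to 259.6 in the calorie-restricted, 174 in the 174-day and 213 in the 17-day mouse. These last 2 were thus lowest in the 174-day mouse, where Slc39a14 and Slc39a4 were highest. Slc39a10 differed little, at 0.06 with diet, 0.10 against the 17-day mouse and 0.04 with age. Of the Slc30 family, which moves zinc out of the cytosol, Slc30a7 scaled to 428 in the calorie-restricted, 226 in the 174-day and 323 in the 17-day mouse. Its diet difference was 0.21 after the position correction. Slc30a2 was at -0.09 with diet, Slc30a3 at -0.36 and Slc30a4 at -0.52. The iron exporter Slc40a1, ferroportin, scaled to 320.5 in the calorie-restricted, 306 in the 174-day and 382 in the 17-day mouse, and the heme carrier Slc48a1 to 615 in the calorie-restricted, 456 in the 174-day and 563 in the 17-day mouse. Ferroportin was highest in the young mouse and the heme carrier lowest in the 174-day mouse, with no difference among these above 0.43 log2. For Slc48a1 the position correction turned the age difference from -0.30 to 0.36. In the age comparison 4 metal carriers lay above 0 and 7 below.

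Of 20 amino acid carriers 10 entered, and none was 2-fold apart in any comparison, where 6.86%, 1.58% and 1.16% of all genes were with diet, against the 17-day mouse and with age. Their median was -0.27 with diet, -0.28 in the calorie-restricted against the 17-day mouse and -0.16 with age, but 0.15, -0.08 and -0.10 after the position correction. Slc38a4, a sodium-coupled neutral amino acid carrier of hepatocytes, scaled to 345 in the calorie-restricted, 549 in the 174-day and 345 in the 17-day mouse. Its 174-day value was thus above 2 nearly equal ones, while a dimmer probe had 107 in the calorie-restricted, 80.9 in the 174-day and 71.4 in the 17-day mouse, highest in the calorie-restricted mouse. Slc38a1, with the same kind of substrates, had entering probes at -0.70 and -0.49 with diet, and at 0.11 and 0.22 after the position correction. Slc38a9, a lysosomal carrier that reports arginine to mTORC1, scaled to 1108 in the calorie-restricted, 828 in the 174-day and 1068 in the 17-day mouse. Slc3a2, the heavy chain shared by several exchangers, was at 0.10 with diet, -0.25 against the 17-day mouse and -0.35 with age. Its light chains differed in direction with diet, Slc7a6 at 0.56 and Slc7a8 at 0.13 against Slc7a7 at -0.29, and each was below 0 with age. After the position correction all 3 lay above 0 with diet, at 0.35, 0.07 and 0.14 in the same order. Slc6a13, a carrier of GABA and taurine found on hepatocytes, had deposited intensities of 7114, 2839 and 14630.3 in the calorie-restricted, 174-day and 17-day mouse. It was at -0.26 with diet, -0.45 against the 17-day mouse and -0.18 with age. With median centring its diet difference was -1.13, while the position correction turned it to 0.24 with diet and 0.14 against the 17-day mouse.

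Carriers of bile acids and organic ions entered with 5 of 12 genes, all within 0.51 log2 in the 3 comparisons. Slco1b2, the hepatocyte carrier of bile acids and drugs from the blood, scaled to 447 in the calorie-restricted, 402 in the 174-day and 549 in the 17-day mouse. It was highest in the young mouse and lowest in the 174-day mouse. The prostaglandin carrier Slco2a1 scaled to 972 in the calorie-restricted, 888 in the 174-day and 884 in the 17-day mouse, which were close together. Slc22a5, the carnitine carrier, was at -0.12 with diet, 0.11 against the 17-day mouse and 0.23 with age. Slc22a17, a receptor of the iron-binding protein lipocalin-2, was at -0.51 with diet. Slco5a1 had an entering probe on each array, at -0.11 (array A) and -0.42 (array B) with diet, and at 0.41 and -0.19, with opposite signs, against the 17-day mouse. The bile acid family Slc10 was named on the arrays through Slc10a4 and Slc10a6, neither of which entered.

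Among 10 carriers of bicarbonate, chloride and protons, 5 entered. The potassium-chloride cotransporters Slc12a4 and Slc12a7 were at -0.44 and -0.27 with diet and at -0.18 and 0.01 after the position correction. A dimmer Slc12a7 probe on array A was on the other side of 0, at 0.69 with diet. Against the 17-day mouse it was at 0.998, and the entering probe at -0.44. Over both probes Slc12a7 was at 0.21 with diet. Slc4a1, the anion exchanger of red cells, scaled to 223 in the calorie-restricted, 196 in the 174-day and 211 in the 17-day mouse, and the other erythroid genes that entered lay from -0.16 to 0.34 in the same comparison. Slc4a8 was at 0.49 with diet, -0.12 against the 17-day mouse and -0.61 with age. Its 174-day value stood below the other mice, at 151, but a dimmer probe on array B was at -0.96 with diet, the other way round. Of the carboxylate, sulfate and phosphate carriers, 3 of 6 entered. The lactate and pyruvate carrier Slc16a1 scaled to 326 in the calorie-restricted, 248 in the 174-day and 297 in the 17-day mouse, lowest in the 174-day mouse. Slc16a13 was at 0.30 with diet, -0.41 against the 17-day mouse and -0.71 with age, and at -0.25 with age after the position correction.

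Sugar carriers entered with 4 of 8 genes. Besides Slc2a8, these were Slc5a11, Slc50a1 (-0.15 with diet) and Slc45a3. The 2 entering probes of Slc45a3 disagreed, at -1.31 and 0.40 with diet and at 0.59 and -0.72 with age, and both were on array A. The glucose carriers Slc2a4, of muscle and fat, and Slc2a5, which carries fructose, were on the arrays without entering. Of 12 nucleotide sugar carriers and relatives, 7 entered. The CMP-sialic acid carrier Slc35a1 was at -0.52 with diet, or 0.05 after the position correction. With that correction Slc35b2 was at -1.13, and the next largest difference of this class was 0.33, for Slc35c2. The entering probe of Slc35e1 scaled to 1283 in the calorie-restricted, 1275 in the 174-day and 1259 in the 17-day mouse, nearly alike. After the position correction it was at 0.26 with diet and 0.55 against the 17-day mouse. Over both probes Slc35e1 was at -0.37 with diet. Slc35f2 was at 0.08 with diet.

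The choline carriers Slc44a1 and Slc44a2 supply phospholipid synthesis. Slc44a2 scaled to 2500.1 in the calorie-restricted, 2652 in the 174-day and 2468 in the 17-day mouse, and Slc44a1 had entering probes at 0.11 and -0.31 with diet. Both genes thus stayed within the spread between probes. The nucleoside carriers Slc28a3 and Slc29a2 were at 0.51 and 0.42 with diet and at 0.05 and 0.35 after the position correction. Slc17a9, which loads ATP into vesicles, was at 0.30 with diet, 0.27 against the 17-day mouse and -0.04 with age. The peptide carrier Slc15a2 was at -0.41 with diet, against 0.93 for Slc15a4. The fatty acid family Slc27 was named through Slc27a4, which scaled to 571 in the calorie-restricted, 633 in the 174-day and 511 in the 17-day mouse. Its diet difference was -0.15, but -0.91 after the position correction.

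**Figure D3:**
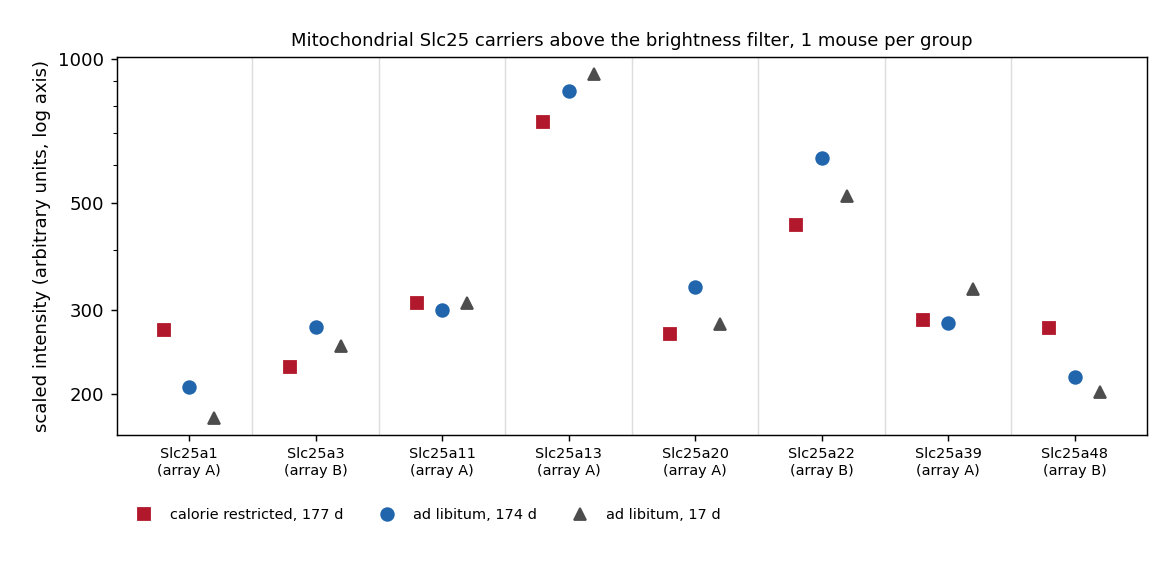
Scaled intensity (arbitrary units, log axis) of the 8 entering mitochondrial carriers of family Slc25, with 1 point per mouse and no error bar since each group was 1 mouse. For every gene the 3 mice lie within 1.5-fold of each other, except Slc25a1, whose calorie-restricted value is above that of the 17-day mouse by 0.61 log2.

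Mitochondrial carriers exchange metabolites between the matrix and the cytosol, and 8 of the 16 Slc25 genes entered, each with 1 probe. None was 2-fold apart in any comparison, against 6.86%, 1.58% and 1.16% of all genes. Their median was -0.10 log2 with diet, -0.11 in the calorie-restricted against the 17-day mouse and 0.12 with age, against -0.04, -0.09 and -0.03 for all genes. Slc25a1, which exports citrate for fatty acid synthesis, scaled to 272 in the calorie-restricted, 208 in the 174-day and 179 in the 17-day mouse. The calorie-restricted mouse was highest and the young mouse lowest, but the difference between them was 0.27 after the position correction. The phosphate carrier Slc25a3 scaled to 228 in the calorie-restricted, 276 in the 174-day and 252 in the 17-day mouse. Slc25a13, the aspartate and glutamate exchanger that feeds the urea cycle, scaled to 738 in the calorie-restricted, 857 in the 174-day and 929 in the 17-day mouse. The values of Slc25a13 lay within 0.33 log2 of each other. Slc25a20, which brings acylcarnitine in for oxidation, scaled to 267 in the calorie-restricted, 335 in the 174-day and 281 in the 17-day mouse. The 174-day mouse was highest there, at -0.33 with diet and 0.26 with age. The glutamate carrier Slc25a22 scaled to 452 in the calorie-restricted, 622 in the 174-day and 518 in the 17-day mouse, in the same order of the older mice, with a diet difference of -0.46, or -0.90 after the position correction. The oxoglutarate and malate carrier Slc25a11 was at 0.05 with diet and at 0.61 after the position correction. Slc25a39, which imports glutathione, was at 0.02 with diet, -0.21 against the 17-day mouse and -0.23 with age, and Slc25a48 at 0.34 with diet, 0.44 against the 17-day mouse and 0.10 with age.

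The other 8 Slc25 genes were dimmer. Without the brightness filter the diet median of all 16 was -0.22, with 6 above 0 and 10 below, against -0.01 for all genes. Among the dim ones, the peroxisomal carrier Slc25a17 scaled to 49.5 in the calorie-restricted, 58.0 in the 174-day and 100.2 in the 17-day mouse. It was -1.02 log2 in the calorie-restricted against the 17-day mouse, past 2-fold, but at -0.81 after the position correction. Slc25a36, a pyrimidine nucleotide carrier, scaled to 107 in the calorie-restricted, 201 in the 174-day and 124 in the 17-day mouse, highest in the 174-day mouse at -0.91 with diet, or -1.19 after the position correction. The S-adenosylmethionine carrier Slc25a26 was at 0.73 with diet, or 1.24 after the position correction, and the folate carrier Slc25a32 at 0.56 with diet, while the iron carrier Slc25a37 was at -0.10. Slc25a30 was at -0.57, Slc25a33, of the pyrimidine nucleotide carriers, at -0.26 and Slc25a44, linked to branched-chain amino acids, at -0.46.

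**Figure D4:**
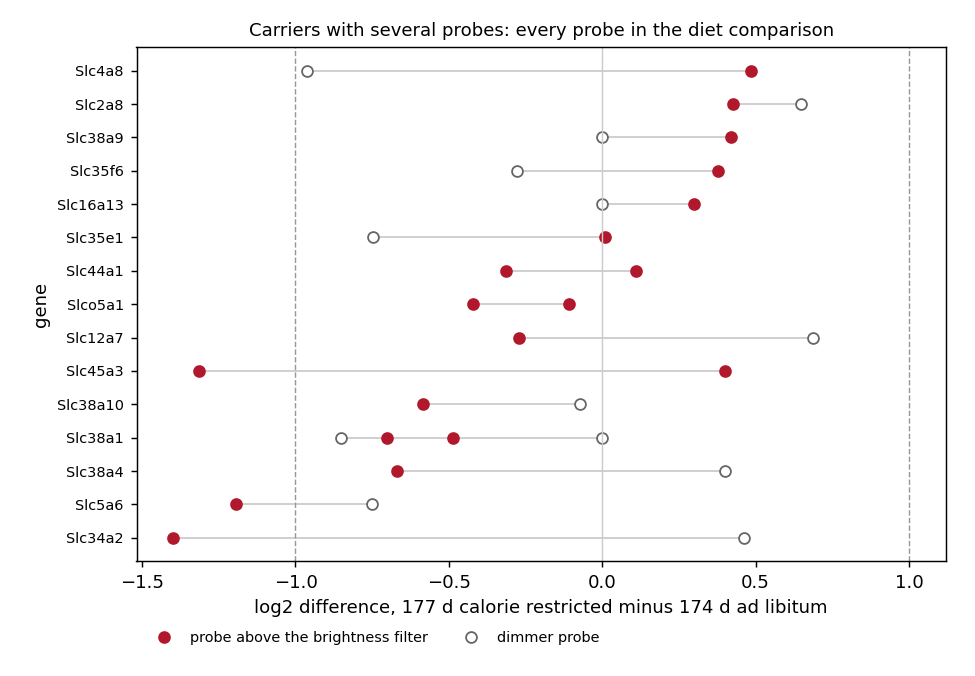
Log2 difference between the calorie-restricted and the 174-day mouse for every probe of the 15 carriers with several probes of which at least 1 entered, entering probes filled and dimmer ones open, with dashed lines at 2-fold. Probes of Slc34a2, Slc45a3, Slc12a7, Slc38a4, Slc35e1, Slc35f6, Slc44a1 and Slc4a8 fall on both sides of 0, and the dimmer probes at 0 read at the floor in all 3 mice.

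Of the 123 carriers, 21 had several probes and 11 were on both arrays, but only 4 had 2 entering probes. These were Slc38a1, Slco5a1, Slc44a1 and Slc45a3. Both entering probes agreed in sign with diet for Slc38a1 and Slco5a1, against the 17-day mouse for Slc38a1 and Slc45a3, and with age for Slco5a1 and Slc44a1. With diet the range between the probes of these 4 had a median of 0.37 log2 and a pooled SD of 0.64, against 0.54 and 0.58 over the 557 genes. Of the carriers counted as apart, Slc34a2 and Slc5a6 had a further, dimmer probe. It went the other way for Slc34a2 with diet and for Slc5a6 against the 17-day mouse, and the same way for Slc5a6 with diet.

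Among the 59 carriers without an entering probe, whose values lie nearer to the background, 4 were 2-fold apart with diet, or 6.78% against 9.74% of all genes without an entering probe. Slc44a4, a choline carrier relative, scaled to 115 in the calorie-restricted, 44.6 in the 174-day and 63.3 in the 17-day mouse, and the magnesium carrier relative Slc41a3 to 71.3 in the calorie-restricted, 27.4 in the 174-day and 24.1 in the 17-day mouse. Both were highest in the calorie-restricted mouse, at 1.37 and 1.38 log2 with diet. Slc10a6, which carries sulfated steroids, scaled to 147 in the calorie-restricted, 71.4 in the 174-day and 97.5 in the 17-day mouse, at 1.04 with diet and 0.28 after the position correction. The vitamin C carrier Slc23a2 scaled to 58.6 in the calorie-restricted, 140.1 in the 174-day and 57.2 in the 17-day mouse, so that the 174-day mouse stood above both others, at -1.26 with diet and 1.29 with age. The taurine carrier Slc6a6, whose probes on both arrays were dim, was at 1.28 and 0.56 with diet, or 0.63 and -0.12 after the position correction, and at 0.97 and 0.84 against the 17-day mouse. Slc41a3 and Slc25a17 were the 2 apart in the calorie-restricted against the 17-day mouse (3.39%, against 1.25%), and Slc23a2 and Slc6a20a the 2 apart with age (3.39%, against 5.81%). The Slc6a20a spot read 0.63 in the 174-day mouse, below the floor of that array, and its difference between the calorie-restricted and the 17-day mouse was -0.96, or -1.32 after the position correction. Among the dim carriers not described, the correction also took Slc9b2 past 2-fold with diet (-0.53, then -1.24) and age (0.78, then 1.05), and Slc46a1 with diet (-0.77, then -1.16). The liver carriers Slc22a7 and Slc29a1 were at 0.33 and 0.24 with diet, Slc7a2, which carries arginine, at -0.22, and the glutamine carrier Slc38a3 at 0.37 with diet and 0.82 against the 17-day mouse. The adaptor protein gene Slc9a3r1, which bears a carrier's symbol without being one, was at -0.16 with diet.

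Other genes, most of them for transport proteins, were taken from a list of the ABC family, aquaporins, mitochondrial channels, carrier partners and relatives of the carriers. No aquaporin was named on the arrays. Of 30 such genes on the arrays 14 entered and 0 were 2-fold apart in any comparison, against 6.86% of all genes with diet, 1.58% against the 17-day mouse and 1.16% with age. Their median was -0.17 with diet, with 5 above 0 and 9 below, -0.14 in the calorie-restricted against the 17-day mouse and 0.08 with age. The peroxisomal fatty acid pump Abcd3 was at 0.87 with age and -0.44 with diet, and the cholesterol exporter Abca1 at 0.39 and -0.60. Abcf3, which like the other Abce and Abcf genes counted here is no transporter in spite of its family, was at -0.82 with diet and at -1.18 after the position correction. The partners of the monocarboxylate carriers, Bsg and Emb, were at -0.34 and 0.57 with diet. The mitochondrial pyruvate carrier gene Mpc1 and the outer membrane channels Vdac1, Vdac2 and Vdac3 had no entering probe.

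Promoter windows of 250 bases were matched by symbol for 94 of the 123 carriers, with 129 annotated starts. Their median share of G and C was 60.4%, against 60.0% for the 7476 windows of named genes on the arrays. The GC box was found in 64.3% of the carrier windows and 58.0% of those of named genes, and the metal response cores in 22.5% and 30.2%. For the Slc25 genes, 13 of 14 windows held a GC box (92.9%) and 8 held CCAAT (57.1%, against 35.4% of the windows of named genes). CACGTG was in 4 of these 14 windows (28.6%, against 8.80%). The windows of 1 gene can overlap, and these shares are descriptions.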

How the data were processed

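The deposited spot values were read as intensity on a linear scale, since they were positive, right-skewed and several-fold apart in median between arrays. The sources used here do not say how the authors made these intensity values, including background treatment and scaling, so whether background was removed is unknown. Of 16896 spots, 9663 had 1 gene symbol in GEO's platform annotation, 436 several and 6797 none, and 10 spots with several symbols, of which 1 or more was a carrier, were left out. All 123 carrier symbols matched RefSeq for GRCm38.p6. Every column of values was tied to a mouse, with 0 exceptions.

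Values under an array's 5th percentile were set to it. The log2 values of the 3 arrays of a kind were then quantile-scaled. Genes entered, took their values and were counted as given above. For the position correction, medians were taken out first by block (16 runs of 528 spots) and then by place in the block, keeping the entering probes, and the sources used here do not give the print layout itself. No test was made, with 1 mouse per group. The named genes were those 2-fold apart, the 8 highest and 8 lowest, those with 2 entering probes in 1 direction, known liver carriers and all Slc25 genes. Members outside this rule and the single transport genes quoted were picked once values had been seen. The members, classes and lists were chosen with earlier results of these data known. The code of the steps was checked on simulated data with planted differences and less spread than between probes here. That check does not bear on single calls. The alternatives were median centring, no scaling, loess with a span of 0.3, the position correction, no filter or the top 25% of probes, a higher floor (25th percentile), 1 probe per gene by brightness, each array kind alone, spots of exactly 10 or apart in 1 mouse left out and a 1.5-fold limit. The software was pandas 2.3.3, numpy 2.4.6, statsmodels 0.14.6 and matplotlib 3.10.9 under Python 3.11.15.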

Additional observations from a re-analysis of the deposited data

How the results depend on the processing

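With 1 mouse per group none of the differences could be tested between animals. No paired analysis was possible because each group holds 1 mouse. Of the 7 calls, Slc26a10 stayed 2-fold higher with diet under all 11 alternatives that gave it a value, from 1.03 to 4.68 log2. Most of these left its 1 bright probe untouched and returned 1.45, so they say little about the call. The others gave 1.29 with median centring, 1.41 with loess, 1.03 with the position correction and 4.68 without scaling, where all 64 carriers lay above 0. With no scaling the diet differences of Slc34a2 (1.83), Slc35b2 (2.06), Slc39a14 (1.63), Slc39a4 (0.37) and Slc5a6 (2.08) turned round. The counts of carriers apart were then 63 with diet, 3 in the calorie-restricted against the 17-day mouse and 64 with age, as 99.1%, 3.57% and 99.8% of all genes were. The carrier median was then 2.76 with diet and -2.88 with age, and the Slc25 median 2.94 and -3.03. With median centring the carrier median was -0.32 with diet and 0.20 with age. The count with diet was then 9 (14.1%, against 17.1% of all genes). It was 0 against the 17-day mouse, where 1.06% of all genes were apart, and 1 with age (1.56%, against 1.94%). The count against the 17-day mouse was 0 with loess, the top 25% of probes, array B alone or scaling without the 174-day mouse. The last of these was chosen after seeing the data. In the same order 1.06%, 1.90%, 0.522% and 1.01% of all genes were apart. With the position correction the carrier count was 3 (4.69%, against 1.01% of all genes). The medians of that comparison were 0.031 (all carriers) and 0.088 (Slc25) with the position correction. Without the brightness filter 8 carriers were apart with diet, 4 higher and 4 lower (6.50%, against 7.44% of all genes). Against the 17-day mouse 2 were then apart (1.63%, against 1.13% of all genes), and with age 2 (1.63%, against 3.22%). The carrier median against the 17-day mouse was 0.00 without the filter, and the Slc25 median with diet was -0.22. With the top 25% of probes the carrier median against the 17-day mouse was -0.23, and the 1 Slc25 gene left was at -0.22 with diet, -0.33 against the 17-day mouse and -0.12 with age. Array A alone gave Slc25 medians of 0.017 with diet and -0.049 with age. Array B alone gave -0.28 with diet, with 1 carrier apart (3.1%, against 6.84% of all genes). At 1.5-fold 13 carriers were apart with diet (20.3%, against 28.5% of all genes) and 7 against the 17-day mouse (10.9%, against 15.4%). With age 8 carriers were apart at that limit (12.5%, against 8.62%). The causes of these shifts were not tested. Signal over background limits the 59 dim carriers.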
